A study of Mus musculus with 15 samples.

Results

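The mouse mitochondrial genome was represented by 34 of the 19602 genes in the deposited table, namely every row whose symbol starts with mt-. They were all 13 protein genes of that genome, both ribosomal RNA (rRNA) genes and 19 transfer RNA (tRNA) genes. The GENCODE M21 annotation places 37 genes on the mitochondrial chromosome of GRCm38, and the tRNA genes mt-Tf, mt-Ty and mt-Td among them were not analysed here. RNA came from whole kidneys of 4 groups of mice: generation 3 Tert-/- (G3) mice given folic acid (n = 4 libraries), G3 mice given vehicle (n = 4), Tert+/+ (WT) mice given folic acid (n = 3) and WT mice given vehicle (n = 4). Tert encodes the catalytic subunit of telomerase, and mice that lack it lose telomere length from one generation to the next. Mice of both sexes, 6 to 8 weeks old and kept free of specific pathogens, received 1 intraperitoneal injection of folic acid at 125 mg/kg or of 200 ul of 0.3 M NaHCO3. Kidneys were perfused with cold PBS and taken on day 14, so every group had been injected and perfused. Folic acid at high dose injures kidney tubules and is used to model kidney fibrosis, and the series asks whether short telomeres make the kidney more sensitive to it.

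Mitochondrial DNA is a small circle whose genes are read from both strands into long precursor RNAs. Enzymes release the single RNAs by cutting at the tRNAs that lie between most of the other genes, and ribosomal RNAs and most messenger RNAs then receive short A tails. The protein genes encode core subunits of respiratory chain complexes I, III and IV and of ATP synthase, the rRNAs and tRNAs serve the ribosomes that make these proteins, and the proximal tubule and the thick ascending limb of the kidney are rich in mitochondria.

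The genes whose levels the comparisons turn on are shown first, from the GENCODE M21 transcripts on GRCm38. The tRNAs are the proline tRNA mt-Tp (chrM:15356-15422, minus strand) and the tryptophan tRNA mt-Tw (chrM:4950-5016, plus strand), which differed between groups, and the methionine tRNA mt-Tm (chrM:3845-3913, plus strand), the asparagine tRNA mt-Tn (chrM:5089-5159, minus strand) and the alanine tRNA mt-Ta (chrM:5018-5086, minus strand), which with mt-Tp had the highest counts. Capitals mark the anticodon, the triplet that pairs with the codon.
mt-Tp: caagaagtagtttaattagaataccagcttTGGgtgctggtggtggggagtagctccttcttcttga
mt-Tw: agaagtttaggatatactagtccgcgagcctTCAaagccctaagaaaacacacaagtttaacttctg
mt-Tm: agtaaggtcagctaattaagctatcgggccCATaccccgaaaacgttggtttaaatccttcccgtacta
mt-Tn: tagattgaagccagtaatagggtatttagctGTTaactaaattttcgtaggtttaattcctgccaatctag
mt-Ta: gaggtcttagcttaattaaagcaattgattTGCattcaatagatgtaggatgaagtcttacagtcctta

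Among the protein genes, mt-Nd3 and mt-Nd6 differed between groups, and mt-Nd4l and mt-Co2 had low levels. Their last 60 bases are given because the library kit, QuantSeq 3' FWD, starts cDNA from oligo-dT primers, which pair with A-rich RNA. Capitals mark runs of 4 or more A. mt-Nd3 lies at chrM:9459-9806 on the plus strand (shown from 9747), mt-Nd4l at chrM:9877-10173 on the plus strand (shown from 10114), mt-Co2 at chrM:7013-7696 on the plus strand (shown from 7637), and mt-Nd6 at chrM:13552-14070 on the minus strand (shown from 13611 down to 13552).
mt-Nd3: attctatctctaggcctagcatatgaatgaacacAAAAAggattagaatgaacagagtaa
mt-Nd4l: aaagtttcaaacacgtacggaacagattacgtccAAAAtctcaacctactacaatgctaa
mt-Co2: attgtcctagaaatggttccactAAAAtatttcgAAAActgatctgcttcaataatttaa
mt-Nd6: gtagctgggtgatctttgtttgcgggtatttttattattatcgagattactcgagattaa

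The libraries held 5014684 to 6609307 reads (median 6091019), and values are normalised counts, in which the authors divided the reads of each library by 1 size factor. Xist and Y-linked RNA matched the labelled sex in 3 of 15 libraries and went against it in 10, and the other 2 held both. Reads of Y-linked genes, beyond a trace, were found in 3 of 4 G3 folic acid, 0 of 4 G3 vehicle, 0 of 3 WT folic acid and 4 of 4 WT vehicle libraries, so it moved with the groups in all 4 comparisons of a pair of groups. In WT in particular, folic acid and the presence of Y-linked RNA cannot be told apart. The library WT folic acid 1 stood apart from the other 14: Gm42418, a transcript that overlaps nuclear ribosomal RNA, took 23.0% of its reads against 4.85% to 8.15% elsewhere, and values without it are given beside the results that it moves most. Tert had 3 to 12 reads per library in G3 folic acid, 3 to 14 in G3 vehicle, 7 to 12 in WT folic acid and 3 to 20 in WT vehicle, and since the sources do not say where the deletion lies relative to these reads, Tert checks no label. Markers of kidney tubules were high in all 15 libraries (the 6 proximal tubule markers summed to 15514 or more normalised counts). Of the tissues that dissection can carry along, 3 of 3 adipocyte markers, 1 of 3 adrenal cortex markers and 0 of 3 skeletal muscle markers had a row in the table. The adipocyte markers summed to 561 normalised counts in G3 vehicle 1, 103 in G3 folic acid 3 and less in the other G3 libraries. Their sums were 1.13 to 6.72 in WT folic acid and 5.65 to 7.99 in WT vehicle. In G3 vehicle against WT vehicle the 2 tested had a median log2 difference of 2.86, and neither had a limma adjusted p under 0.05. The part of adipocyte RNA in the mitochondrial values was not tested.

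Mitochondrial genes took 22.3% to 27.5% of all reads of a library, and 2 rRNAs and 5 protein mRNAs made up most of that. The 16S rRNA mt-Rnr2 alone held 38.6% of the mitochondrial reads, mt-Nd4 held 18.6%, the 12S rRNA mt-Rnr1 12.8%, mt-Nd2 11.6%, mt-Nd1 6.37%, mt-Cytb 5.45% and mt-Co3 2.29%. Per kilobase of gene, mean levels over the 15 libraries were 356547 normalised counts for mt-Rnr2, 196542 for mt-Nd4, 195584 for mt-Rnr1, 162955 for mt-Nd2, 97146 for mt-Nd1 and 69256 for mt-Cytb. The order of mt-Nd4 and mt-Rnr1 in that list is not firm, since their coefficients of variation over libraries were 24.9% and 19.9%. Below them, per kilobase, came mt-Co3 (42472), mt-Atp6 (27858), mt-Atp8 (20668), mt-Nd3 (12609), mt-Nd5 (11091) and mt-Co1 (9406). The last 3 protein genes were far lower, at 683 per kilobase for mt-Co2, 88.7 for mt-Nd6 and 54.8 for mt-Nd4l, below the highest tRNA genes (mt-Tn 2019, mt-Tm 1909, mt-Tp 1639 per kilobase). This kit primes cDNA at A-rich sites and its read numbers need not scale with gene length, so these levels describe the libraries rather than numbers of RNA molecules.

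**Figure D1:**
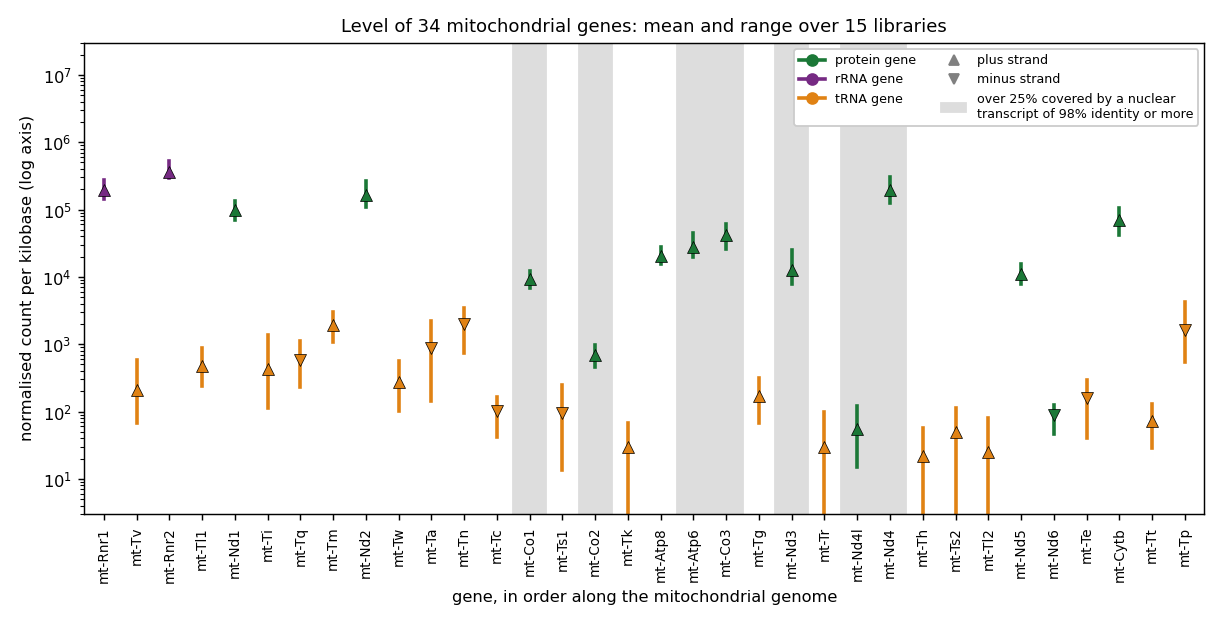
Mean normalised count per kilobase of each of the 34 mitochondrial genes, in genome order, on a log axis; bars span the lowest to the highest of the 15 libraries and are cut at 3 where a library had no read, triangles up are plus-strand genes and triangles down minus-strand genes, and grey marks genes covered over more than 25% of their length by a nuclear transcript at least 98% identical. The rRNA genes and mt-Nd4 stand highest, mt-Co2, mt-Nd6 and mt-Nd4l stand 3 lowest among protein genes, and the tRNA genes run from 21.7 to 2019 per kilobase.

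Levels differed widely within a complex. Of the complex I subunits, mt-Nd4, mt-Nd2 and mt-Nd1 exceeded mt-Nd5, mt-Nd3, mt-Nd6 and mt-Nd4l per kilobase in their means, and of the cytochrome c oxidase subunits mt-Co3 exceeded mt-Co1, which exceeded mt-Co2. mt-Nd4l and mt-Nd4 share 7 bases on one strand, with no tRNA gene between them, and their means were 16.3 and 270836 normalised counts. mt-Co2, mt-Nd6 and mt-Nd4l were also the only 3 of the 13 protein genes whose coding strand has no run of 5 or more A. The other 10 had a median of 35165 per kilobase, against 88.7 for these 3. The tRNA genes did not show this order: the 4 with a run of 5 or more A (mt-Th, mt-Tl2, mt-Tr and mt-Ts2) had 21.7 to 49.4 per kilobase, and the 15 without had a median of 275. mt-Rnr2 holds a run of 7 A inside the gene (chrM:1463-1519, plus strand, capitals mark it), far from its 3' end at 2675. The part of A-runs in these levels was not tested.
mt-Rnr2: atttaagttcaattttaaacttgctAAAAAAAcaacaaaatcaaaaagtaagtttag

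Some of these genes have near-identical copies in nuclear DNA. Transcripts of 17 nuclear genes matched a mitochondrial gene over at least 50 bases at 90% identity or more, and 8 of them had a row in the table. A block of 7 pseudogenes at chr1:24611535-24616197 (4663 bases) matched mt-Co1, mt-Co2, mt-Atp6, mt-Co3, mt-Nd3, mt-Nd4l and mt-Nd4 at 99.71% to 100% identity. The match covered 31.3% of mt-Co1, 63.6% of mt-Nd4 and 99.0% to 99.9% of each of the others. Reads of the matched stretches cannot be assigned with certainty to either place. The 3 copies of highest mean were Gm13340 (a copy of mt-Co1, 151 normalised counts), Gm13341 (mt-Co2, 141) and Gm4076 (mt-Nd5, 28.7). Together the 8 copies summed to 0.0128% to 0.0341% of the mitochondrial counts of a library. Of the block of 7 pseudogenes only 1, Gm28437 (a copy of mt-Co3, mean 2.54), is among these 8. The sum therefore leaves out the rest of that block and does not measure its part in the mitochondrial counts. For mt-Co2, whose own mean was 467, the copy Gm13341 is not small.

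The share of reads on mitochondrial genes was 23.9% ± 1.29 in G3 folic acid (SD, n = 4), 24.5% ± 1.997 in G3 vehicle (n = 4), 24.5% ± 2.31 in WT folic acid (n = 3) and 25.7% ± 0.664 in WT vehicle (n = 4). In both genotypes the difference between folic acid and vehicle was smaller than the folic acid group's own SD. With the reads of Gm42418 taken out of the total, the share was 25.6% in G3 folic acid, 26.2% in G3 vehicle, 28.2% in WT folic acid and 27.5% in WT vehicle, so the direction in WT turned. Protein genes took 11.9% ± 1.26 of reads in G3 folic acid, 11.9% ± 0.725 in G3 vehicle, 10.53% ± 3.16 in WT folic acid and 13.4% ± 1.90 in WT vehicle. The rRNA genes took 12.01% ± 0.174 in G3 folic acid, 12.7% ± 1.299 in G3 vehicle, 14.0% ± 1.19 in WT folic acid and 12.3% ± 1.39 in WT vehicle. The library WT folic acid 1 set much of this, with 6.99% of reads on protein genes, 15.3% on rRNA genes and an rRNA to protein ratio of 2.18, against 0.764 to 1.35 in the other 14 libraries. The other 2 WT folic acid libraries had 11.5% and 13.1% on protein genes, inside the range of WT vehicle (10.6% to 14.7%), and 12.9% and 13.8% on rRNA genes.

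tRNA genes together had only 367 to 1077 reads per library, or 0.00605% to 0.0165% of all reads. Their summed normalised count was 637 ± 196 in G3 folic acid, 461 ± 111 in G3 vehicle, 987 ± 73.0 in WT folic acid and 543 ± 71.4 in WT vehicle (SD, n = 4, 4, 3 and 4). Scaled to a common total of mitochondrial reads (1000000 in each library), the 3 WT folic acid libraries held 658, 618 and 615 tRNA reads, above the 220 to 613 of the other 12. The sum was higher in WT folic acid than in WT vehicle on both strands: 367 ± 77.1 against 203 ± 36.4 for the 12 plus-strand tRNA genes, and 620 ± 53.9 against 341 ± 58.3 for the 7 minus-strand ones. Mature tRNAs carry no long A tail, and whether these reads come from mature tRNAs was not tested.

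**Figure D2:**
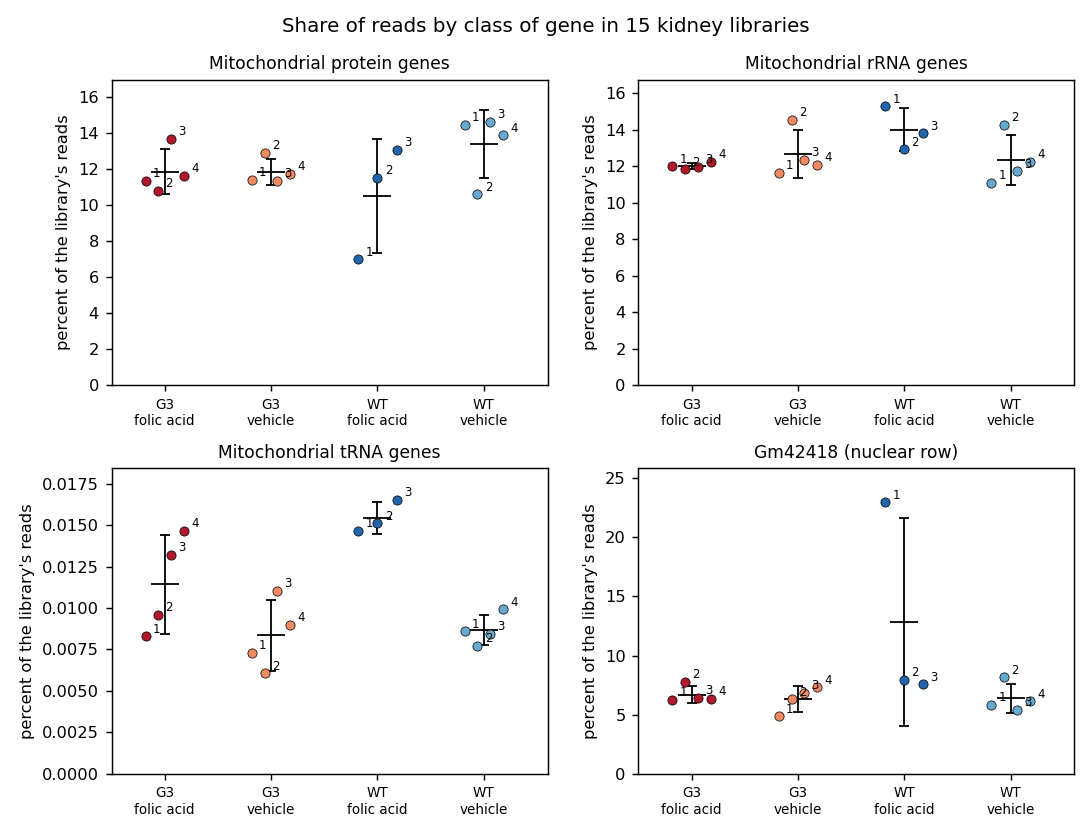
Percent of each library's reads on mitochondrial protein genes, rRNA genes and tRNA genes and on Gm42418, by group; points are libraries numbered by replicate and bars are group means with 1 SD. WT folic acid 1 is lowest for protein genes (6.99%) and highest for Gm42418 (23.0%), and the other 14 libraries lie between 10.6% and 14.7% for protein genes.

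After folic acid in WT kidneys, 1 protein gene and 2 tRNA genes rose and 1 protein gene fell, while the abundant mitochondrial mRNAs and rRNAs did not pass the test. Tests used limma on log2(normalised count + 1) over all 14651 genes with at least 10 normalised counts in at least 3 libraries, with Benjamini-Hochberg adjustment and calls at an adjusted p under 0.05. All 13 protein genes, both rRNA genes and 13 of the 19 tRNA genes passed that filter. Of these 28 genes 4 were called, beside 5.06% of all tested genes: mt-Nd3, mt-Tp and mt-Tw were higher, beside 2.17%, and mt-Nd6 was lower, beside 2.89%.

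mt-Nd3, a small membrane subunit of complex I, had 6028, 6881 and 8633 normalised counts in WT folic acid and 3656, 2749, 4432 and 4703 in WT vehicle. Every WT folic acid library lay above every WT vehicle library, and above all 8 G3 libraries (2983 to 4021). The difference was 0.90 on the log2 scale (SE 0.18, 95% interval 0.53 to 1.27), a 1.87-fold higher level, with a limma adjusted p of 0.0132. As a share of the reads on mitochondrial protein genes, mt-Nd3 took 1.22%, 1.0% and 1.06% in WT folic acid and 0.404%, 0.414%, 0.504% and 0.520% in WT vehicle. The call was kept without WT folic acid 1 (log2 1.02) and lost without WT folic acid 3 (log2 0.76, limma adjusted p = 0.0510). Because its nuclear copy Gm28438 is 99.71% identical over 345 bases, the origin of its reads is uncertain.

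mt-Nd6, the complex I subunit that is alone among the protein genes in being read from the minus strand, had 32.9, 43.2 and 28.6 normalised counts in WT folic acid and 59.9, 60.7, 65.2 and 58.9 in WT vehicle. The 3 folic acid values lay below the 4 vehicle values, at a depth of 24 to 68 reads per library over the whole series. Its log2 difference was -0.81 (SE 0.23, limma adjusted p = 0.0475), a 1.76-fold lower level. mt-Nd6 and mt-Nd5 overlap by 14 bases on opposite strands. The kit keeps the strand, and the protocol names the stranded counting mode that goes with it. The mt-Nd6 call was kept when G3 folic acid 2, G3 folic acid 3 or G3 vehicle 4 was left out and lost when any of the other 12 libraries was, with limma adjusted p-values up to 0.140. Over the series, mt-Nd6 was 39.9 to 65.2 in the 7 libraries with Y-linked RNA, against 24.1 to 43.2 in the 8 without. In WT the treatment cannot be told apart from Y-linked RNA, and in G3 the difference after folic acid had the other sign (log2 0.49, not called).

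mt-Tp had 251, 225 and 280 normalised counts in WT folic acid and 88.2, 76.8, 66.2 and 83.9 in WT vehicle. No other library of the series exceeded 123, so the 3 WT folic acid libraries were the highest of all 15. The log2 difference was 1.67 (SE 0.35), a 3.17-fold higher level, with a limma adjusted p of 0.0165. Of the reads on tRNA genes mt-Tp took 24.3%, 24.9% and 27.3% in WT folic acid and 8.06% to 20% elsewhere. mt-Tw had 23.8, 29.8 and 37.2 in WT folic acid and 6.79, 15.2, 9.59 and 14.0 in WT vehicle, again without overlap (log2 1.37, SE 0.37, limma adjusted p = 0.0418, 2.59-fold). It rests on 6 to 39 reads per library, and G3 folic acid 2 reached 29.1. The mt-Tp call was lost without WT folic acid 1, without WT folic acid 3, without WT vehicle 3 or without WT vehicle 4, at limma adjusted p-values up to 0.0564. The mt-Tw call was lost without any 1 of 8 libraries (G3 vehicle 3 and 4, WT folic acid 1, 2 and 3, and WT vehicle 1, 3 and 4), at limma adjusted p-values up to 0.115.

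**Figure D3:**
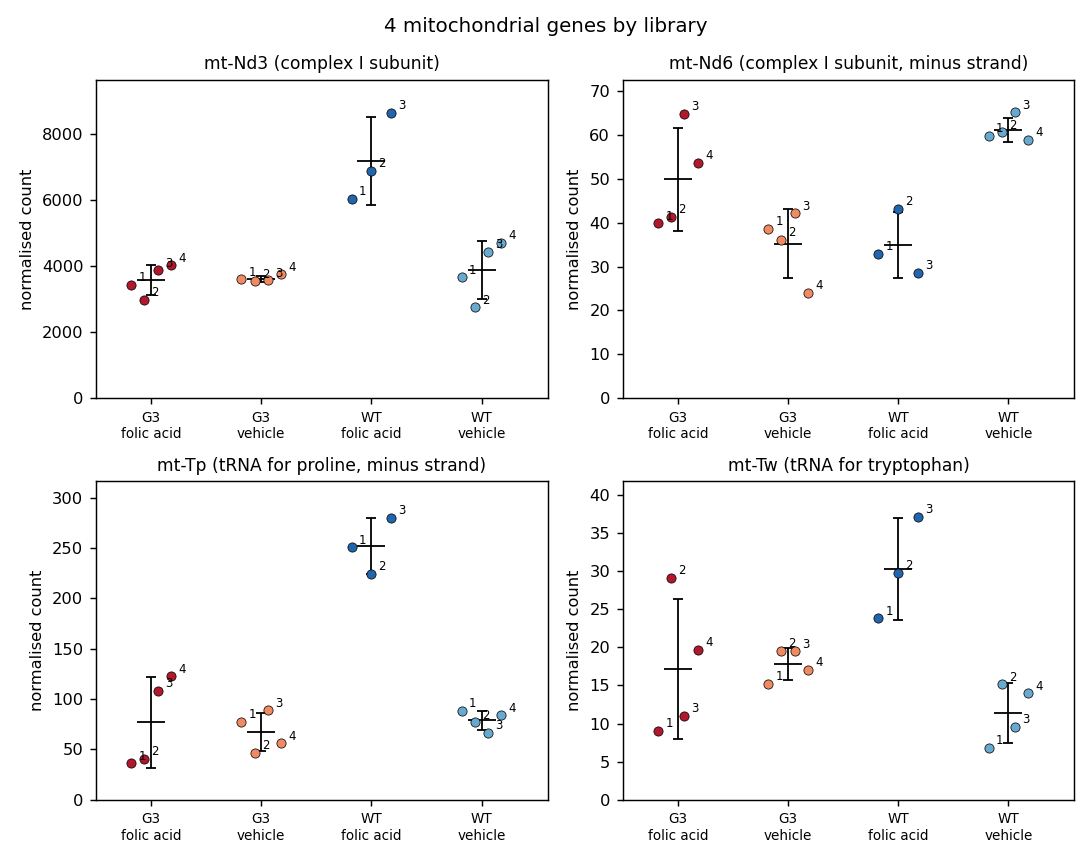
Normalised counts of mt-Nd3, mt-Nd6, mt-Tp and mt-Tw by group; points are libraries numbered by replicate and bars are means with 1 SD. For mt-Nd3 and mt-Tp the 3 WT folic acid libraries lie above all other 12, and for mt-Nd6 they lie below the 4 WT vehicle libraries but overlap G3 vehicle.

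Values within parts of the series bear on these 4 genes. Among the 8 libraries without Y-linked RNA, mt-Nd3 was 6028 to 8633 in the 3 WT folic acid libraries and 2983 to 3744 in the other 5, all of them G3, and mt-Tp was 225 to 280 against 40.4 to 88.7. mt-Tw (23.8 to 37.2 against 15.3 to 29.1) and mt-Nd6 (28.6 to 43.2 against 24.1 to 42.2) overlapped there. That split sets WT against G3, so it cannot be told apart from genotype. When the share of Y-linked RNA was added to the fit, no mitochondrial gene was called in WT. Over all tested genes that fit called 1, against 741 without the term, so the loss of calls was not particular to mitochondrial genes. Of the 4, mt-Nd3 kept a log2 difference of 1.33 (limma adjusted p = 0.311) and mt-Tp one of 1.82, mt-Nd6 had -0.69 and mt-Tw 0.20. Sample titles carry numbers, which were cut here into 3 series, and the 3 WT folic acid libraries share one with 3 of the 4 WT vehicle libraries. Whether these series are batches is not known. In the shared series the folic acid and vehicle titles form separate runs, further apart in number than neighbouring series are. Differences within that series therefore do not hold such a run constant. Within that title series the log2 differences were 1.002 for mt-Nd3, 1.70 for mt-Tp, 1.48 for mt-Tw and -0.83 for mt-Nd6. With the title series as a term in the limma fit over all libraries, none of the 4 calls remained, and that fit called only 2 genes of the whole table.

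Most mitochondrial mRNAs were lower in WT folic acid than in WT vehicle without passing the test. The median log2 difference of the 13 protein genes was -0.36, with 9 of 13 below 0, beside a median of 0.01 over all tested genes. The direction of that median was not firm, since it was 0.14 with the share of Y-linked RNA in the fit. Without WT folic acid 1 it kept its sign but was smaller, at -0.19. By complex, the 7 complex I genes summed to 525843 ± 130670 normalised counts in WT folic acid and 670140 ± 102819 in WT vehicle (548297 and 643832 in WT folic acid 2 and 3), and the 3 cytochrome c oxidase genes to 54108 ± 11196 and 54154 ± 6109 (SD, n = 3 and 4). The 2 ATP synthase genes and mt-Cytb, the single complex III gene, likewise overlapped between the groups.

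mt-Nd4, the complex I gene of highest count, had 172492, 281905 and 331074 normalised counts in WT folic acid and 419486, 265723, 334940 and 336727 in WT vehicle. WT folic acid 1 was the lowest library of the series and WT vehicle 1 the highest, and the groups overlapped (log2 -0.41, SE 0.36). mt-Nd2 had 115717, 153300 and 177181 in WT folic acid and 207873, 146561, 186386 and 219321 in WT vehicle. mt-Nd1 had 74782, 86626 and 107173 in WT folic acid and 110155, 90698, 123987 and 126103 in WT vehicle. Both overlapped, at log2 -0.36 (SE 0.34) for mt-Nd2 and -0.34 (SE 0.26) for mt-Nd1. mt-Nd5 was 16314, 19521 and 19716 in WT folic acid and 24833, 21128, 22867 and 27933 in WT vehicle. Its groups did not overlap, yet the log2 difference of -0.38 (SE 0.21) gave a limma adjusted p of 0.281.

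mt-Cytb, the cytochrome b of complex III, had 47430, 54790 and 77192 normalised counts in WT folic acid and 72758, 58702, 119888 and 104316 in WT vehicle (log2 -0.55, SE 0.29). Of the cytochrome c oxidase genes, mt-Co1, its catalytic subunit, had 10737, 13332 and 13143 in WT folic acid and 14312, 14564, 16296 and 18749 in WT vehicle. All 3 folic acid values of mt-Co1 were the lower ones (log2 -0.36, SE 0.19, limma adjusted p = 0.253). mt-Co3 had 30110, 47094 and 46762 in WT folic acid and 32371, 45158, 34025 and 38873 in WT vehicle, a log2 difference of 0.12 (SE 0.23). mt-Co2, which carries the copper site that takes up electrons, was 336 to 441 in WT folic acid and 465 to 655 in WT vehicle (log2 -0.56, limma adjusted p = 0.0666). Of the protein genes, 4 thus lay wholly below WT vehicle, mt-Co1, mt-Co2, mt-Nd5 and mt-Nd6, beside 10.6% of all tested genes.

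The ATP synthase genes mt-Atp8 and mt-Atp6 overlap by 43 bases on one strand and come from a shared mRNA. mt-Atp8 had 3130, 3977 and 4556 normalised counts in WT folic acid and 4913, 3409, 4954 and 5237 in WT vehicle. mt-Atp6 had 15544, 20327 and 26292 in WT folic acid and 13508, 15526, 30980 and 22068 in WT vehicle. Neither separated the groups (log2 -0.25, SE 0.19, for mt-Atp8 and 0.06, SE 0.28, for mt-Atp6). mt-Nd4l, a complex I subunit with 4 to 32 reads per library, was 20.2 to 36.3 in WT folic acid and 4.52 to 18.01 in WT vehicle (log2 1.13, limma adjusted p = 0.120).

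The rRNAs of the mitochondrial ribosome showed no call. mt-Rnr2 had 832171, 558339 and 626771 normalised counts in WT folic acid and 505839, 633767, 544919 and 591501 in WT vehicle. mt-Rnr1 had 243810, 213645 and 229729 in WT folic acid and 185061, 260592, 157859 and 205610 in WT vehicle. For both, WT vehicle 2 lay inside or above the folic acid range, and the log2 differences were 0.23 (SE 0.40) for mt-Rnr2 and 0.20 (SE 0.29) for mt-Rnr1.

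Of the 13 tested tRNA genes 12 had a log2 difference above 0 in WT after folic acid, with a median of 0.79 beside 0.01 over all tested genes. In all, 9 of the 28 tested mitochondrial genes lay wholly above WT vehicle (mt-Nd3, mt-Nd4l, mt-Ta, mt-Tl1, mt-Tm, mt-Tp, mt-Tq, mt-Ts1 and mt-Tw), beside 9.31% of all tested genes. mt-Tm, the initiator and elongator methionine tRNA, had 208, 173 and 153 normalised counts in WT folic acid and 78.0, 110, 105 and 131 in WT vehicle (log2 0.75, limma adjusted p = 0.0524). mt-Ta had 98.7, 69.1 and 62.0 in WT folic acid and 44.1, 26.5, 45.1 and 47.0 in WT vehicle (log2 0.90, limma adjusted p = 0.303). Both separated the groups, and neither passed the test. mt-Tn had 150, 215 and 247 in WT folic acid and 184, 125, 142 and 207 in WT vehicle, with overlap. mt-Tl1, the leucine tRNA that reads UUR codons, had a log2 difference of 1.03 (limma adjusted p = 0.0788) and mt-Ts1, the serine tRNA that reads UCN codons, one of 1.54 on 1 to 18 reads per library (limma adjusted p = 0.131).

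The remaining tested tRNA genes, for glutamine (mt-Tq), valine (mt-Tv), glycine (mt-Tg), isoleucine (mt-Ti), glutamate (mt-Te) and cysteine (mt-Tc), had log2 differences of 0.79, 0.73, 0.87, 0.38, 0.08 and -0.17. The other 6 tRNA genes were too low to test: mt-Tt, mt-Ts2, mt-Tr, mt-Tk, mt-Tl2 and mt-Th had at most 9 reads in any library. On the minus strand, mt-Tp, mt-Te and mt-Nd6 lie next to one another in that strand's order, and their log2 differences in WT were 1.67, 0.08 and -0.81.

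In G3 kidneys folic acid moved no mitochondrial gene past the test. None of 28 genes was called by limma, beside 0.273% of all tested genes, and edgeR's quasi-likelihood test and DESeq2 called none either. At an unadjusted p under 0.05 limma held 3, mt-Nd6, mt-Ta and mt-Tq, beside 13.8% of all tested genes, and edgeR and DESeq2 held 4 each. Over the whole table limma called 40 genes in G3 and 364 when WT folic acid 1 was left out of the shared estimate of spread, with no mitochondrial gene among them. Of the 28, 0 lay wholly above G3 vehicle, beside 3.98% of all tested genes, and 0 wholly below, beside 3.77%. The median log2 difference was -0.02 for the 13 protein genes and 0.33 for the 13 tested tRNA genes.

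mt-Nd3 had 3432, 2983, 3864 and 4021 normalised counts in G3 folic acid and 3599, 3534, 3561 and 3744 in G3 vehicle. The groups overlapped, and the log2 difference of -0.02 had a 95% interval of -0.37 to 0.32. mt-Tp had 36.3, 40.4, 108 and 123 in G3 folic acid and 77.3, 46.9, 88.7 and 56.1 in G3 vehicle. Its folic acid values fell both below and above those of vehicle, with a log2 difference of 0.03 (95% interval -0.65 to 0.71). mt-Nd6 had 39.9, 41.3, 64.9 and 53.7 in G3 folic acid and 38.6, 36.1, 42.2 and 24.1 in G3 vehicle (log2 0.49, limma adjusted p = 0.298). mt-Tw had 9.08, 29.1, 10.99 and 19.7 in G3 folic acid and 15.3, 19.5, 19.5 and 17.04 in G3 vehicle, a wide overlap.

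Among the abundant genes, mt-Nd4 had 205802, 189982, 259349 and 305372 normalised counts in G3 folic acid and 255361, 280589, 202541 and 221190 in G3 vehicle. mt-Nd2 had 168034, 143816, 277911 and 119994 in G3 folic acid and 114087, 157391, 167694 and 181938 in G3 vehicle. mt-Nd1 had 82044, 66390, 106430 and 70198 in G3 folic acid and 77735, 104366, 82582 and 85258 in G3 vehicle. For these 3 complex I genes G3 folic acid 3 was the highest or second highest of its group, and the groups overlapped. mt-Nd5 had 19002, 14265, 27415 and 17956 in G3 folic acid and 14574, 17870, 19679 and 20382 in G3 vehicle. mt-Cytb had 78453, 75538, 90265 and 69529 in G3 folic acid and 71350, 113221, 79761 and 75234 in G3 vehicle. Neither separated the groups. mt-Co3 had 24976, 20042, 30412 and 27588 in G3 folic acid and 35032, 35059, 23497 and 28475 in G3 vehicle. mt-Co1 had 13844, 12865, 16188 and 11110 in G3 folic acid and 11695, 18588, 15534 and 17023 in G3 vehicle. Their log2 differences were -0.24 (SE 0.21) for mt-Co3 and -0.21 (SE 0.17) for mt-Co1.

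mt-Atp6 had 16073, 16372, 14907 and 13216 normalised counts in G3 folic acid and 15708, 29842, 16279 and 17929 in G3 vehicle, where library 2 stood alone. mt-Atp8, from the same mRNA, had 3929, 3397, 5620 and 3799 in G3 folic acid and 3505, 4057, 4342 and 4419 in G3 vehicle, without such a library. mt-Rnr2 had 493863, 460898, 531219 and 520558 in G3 folic acid and 470555, 685840, 502567 and 502044 in G3 vehicle, again with library 2 high. mt-Rnr1 had 156296, 137510, 196560 and 155335 in G3 folic acid and 144930, 176364, 167209 and 171228 in G3 vehicle. The rRNA log2 differences of -0.09 (SE 0.37) for mt-Rnr2 and -0.04 (SE 0.27) for mt-Rnr1 were far inside their errors.

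Single libraries of G3 folic acid lay far apart in the tRNA genes, with an SD of 196 for their summed count against 111 in G3 vehicle. mt-Ta had 50.8, 51.7, 106 and 152 normalised counts in G3 folic acid and 19.3, 9.77, 61.7 and 57.1 in G3 vehicle (log2 1.45, SE 0.47, limma adjusted p = 0.163). mt-Tn had 101, 52.6, 200.8 and 166 in G3 folic acid and 94.6, 61.5, 99.5 and 105 in G3 vehicle. mt-Tm had 141, 118, 159 and 144 in G3 folic acid and 75.3, 106, 150 and 126 in G3 vehicle. In mt-Ta, mt-Tn and mt-Tp alike, G3 folic acid 3 and 4 were high and 1 and 2 low, and the summed counts of the 7 minus-strand tRNA genes ran from 200 to 544 in G3 folic acid, against 149 to 317 in G3 vehicle.

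**Figure D4:**
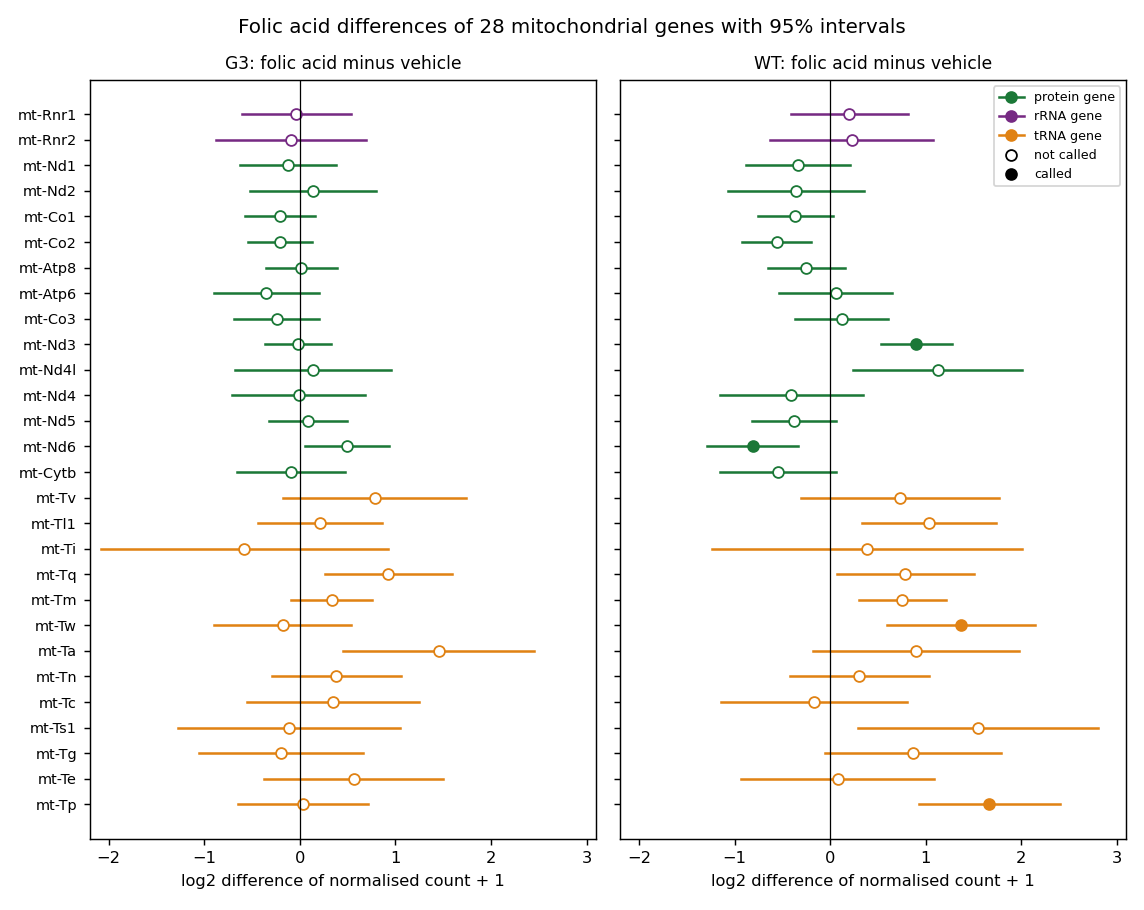
Log2 difference of folic acid against vehicle with its 95% interval for the 28 tested mitochondrial genes, in G3 (left) and in WT (right); filled points were called by limma at an adjusted p under 0.05. In WT mt-Nd3, mt-Tp and mt-Tw lie above 0 and mt-Nd6 below, and in G3 no gene was called.

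Without folic acid, 1 of 28 mitochondrial genes differed between G3 and WT kidneys, beside 2.90% of all tested genes. mt-Nd6 was lower in G3 vehicle, beside 2.03% of all tested genes called lower, with 38.6, 36.1, 42.2 and 24.1 normalised counts against 59.9, 60.7, 65.2 and 58.9 in WT vehicle. The groups did not overlap, and the log2 difference was -0.81 (SE 0.21, limma adjusted p = 0.0473). This is a 1.75-fold lower level on few reads, the 4 G3 vehicle libraries lacked the Y-linked RNA that all 4 WT vehicle libraries held, and the call was kept in 10 of 29 alternative fits. Of single libraries, leaving out G3 folic acid 2, G3 folic acid 3, WT folic acid 1 or WT folic acid 2 kept it, and leaving out any of the other 11 ended it, at limma adjusted p-values up to 0.147. Of the 13 protein genes, 12 had a log2 difference below 0 and mt-Nd6 was the only one that passed the test, with a median of -0.24 beside 0.02 over all tested genes. With the share of Y-linked RNA in the fit that median was 0.17. mt-Nd4 averaged 239920 ± 34835 in G3 vehicle and 339219 ± 62899 in WT vehicle (SD, n = 4 each), a log2 difference of -0.49 (SE 0.33, limma adjusted p = 0.467). mt-Nd5 averaged 18126 ± 2594 in G3 vehicle and 24190 ± 2918 in WT vehicle without overlap (log2 -0.42, SE 0.19, limma adjusted p = 0.261). Besides mt-Nd5 and mt-Nd6, mt-Tc, mt-Te and mt-Tn lay wholly below WT vehicle, beside 6.72% of all tested genes, and mt-Tw lay wholly above, beside 4.29%.

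After folic acid, mt-Nd3 and mt-Tp were lower in G3 than in WT kidneys, 2 of 28 genes, beside 2.30% of all tested genes called either way and 1.58% called lower. mt-Nd3 averaged 3575 ± 467 normalised counts in G3 folic acid (n = 4) and 7181 ± 1328 in WT folic acid (n = 3), a log2 difference of -0.999 (SE 0.18, limma adjusted p = 0.0138). mt-Tp averaged 76.8 ± 44.8 in G3 folic acid and 252 ± 27.8 in WT folic acid (log2 -1.90, SE 0.35, limma adjusted p = 0.0155). Neither gene overlapped between the groups, and these are the WT folic acid libraries already described, so the values add no independent measurement of them. Without WT folic acid 1 both were called and mt-Co3 with them, at 20042 to 30412 in G3 folic acid against 47094 and 46762 in the other 2 WT folic acid libraries. Without WT folic acid 2, without WT folic acid 3, or without G3 folic acid 1 none was called. With the Y-linked share in the fit mt-Nd3 was called (log2 -1.25, limma adjusted p = 0.00898) and mt-Tp was not (log2 -1.99, limma adjusted p = 0.118), and with the title series in the fit neither was. Over all tested genes the first of these fits called 17 and the second 0, against 337 in the main fit. mt-Rnr1, mt-Rnr2, mt-Tg and mt-Ts1 too lay wholly below WT folic acid, beside 9.44% of all tested genes, and 0 of 28 lay wholly above, beside 7.84%. mt-Rnr1 averaged 161425 ± 24965 in G3 folic acid and 229062 ± 15093 in WT folic acid (log2 -0.52, SE 0.29, limma adjusted p = 0.334). All 4 G3 folic acid libraries come from one title series and all 3 WT folic acid libraries from another, so genotype and title series cannot be told apart here.

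The folic acid effect itself differed between genotypes for 2 of 28 genes, beside 3.82% of all tested genes. For mt-Nd3 the effect in G3 minus that in WT was -0.92 on the log2 scale (SE 0.24, limma adjusted p = 0.0386), from effects of -0.02 in G3 and 0.90 in WT. For mt-Nd6 it was 1.31 (SE 0.31, limma adjusted p = 0.0263), from 0.49 in G3 and -0.81 in WT. mt-Tp missed the threshold at -1.64 (SE 0.47, limma adjusted p = 0.0660). Y-linked RNA ran opposite ways in the 2 genotypes, in 3 of 4 G3 folic acid against 0 of 4 G3 vehicle libraries and in 0 of 3 WT folic acid against 4 of 4 WT vehicle libraries, and with its share in the fit neither difference was called. Over all tested genes that fit called 2, against 560 without the share. The mt-Nd3 difference was kept without WT folic acid 1 (log2 -1.04, limma adjusted p = 0.0265), without G3 folic acid 4 and without WT vehicle 2, 3 or 4, and it was lost without any of the other 10 libraries. The mt-Nd6 difference was lost without G3 folic acid 3, without WT folic acid 3 or without WT vehicle 1, 3 or 4, and kept without any of the other 10.

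Few nuclear genes that work with these products were called. Of 78 nuclear genes for subunits of complexes I to IV and ATP synthase, all tested, none rose and 2 fell in WT after folic acid, Ndufs8 of complex I (log2 -0.55, limma adjusted p = 0.0314) and Atp5c1 of ATP synthase (log2 -0.46, limma adjusted p = 0.0480). Beside these 2 of 78, 2.89% of all tested genes were called lower. The median log2 difference of the 78 was -0.16, with 57 of 78 below 0, beside 0.01 over all tested genes. Without WT folic acid 1 neither gene was called and the median was -0.11. In G3 after folic acid 0 of 78 were called, beside 0.273% of all tested genes (median -0.04). In G3 against WT after vehicle 0 of 78 were called, beside 2.90% (median -0.03). Between G3 folic acid and WT folic acid 1 was lower, the complex III core protein gene Uqcrc1 (log2 -0.65, limma adjusted p = 0.0155), beside 1.58% of all tested genes called lower. Its folic acid effect also differed between genotypes (log2 -0.68, limma adjusted p = 0.0303), 1 of 78 genes beside 3.82% of all tested genes. Of 40 genes for mitochondrial DNA replication, transcription and RNA processing, 37 were tested. Mterf3, which acts on mitochondrial transcription and ribosome assembly, was lower in G3 folic acid than in WT folic acid (log2 -0.75, limma adjusted p = 0.0456), 1 of 37, and none was called in the other 4 comparisons. The calls of Uqcrc1 and Mterf3 were kept without WT folic acid 1, and with the Y-linked share or the title series in the fit none of the calls of these 4 nuclear genes remained. Few genes of the whole table were called in those fits. The counts were 1 and 2 in WT folic acid against WT vehicle, and 17 and 0 in G3 folic acid against WT folic acid. Tfam, Polrmt and the other listed genes of transcription and replication were among those without a call.

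The levels of tubule markers were compared in the same libraries. The 3 thick ascending limb markers Umod, Slc12a1 and Cldn16 summed to 26158 to 33461 normalised counts in WT folic acid, above the 16084 to 21740 of WT vehicle, and to 13825 to 21874 in G3 folic acid and 15217 to 20748 in G3 vehicle. Like mt-Nd3 and mt-Tp, this sum was highest in the 3 WT folic acid libraries. Of the 3, Umod was called in WT after folic acid (log2 0.85, limma adjusted p = 0.0330), and Slc12a1 was lower in G3 folic acid than in WT folic acid (log2 -0.94, limma adjusted p = 0.0273). Without WT folic acid 1 Umod was not called (limma adjusted p = 0.142) and Slc12a1 was. The 6 proximal tubule markers summed to 15514 to 30137 in G3 folic acid, 22296 to 30220 in G3 vehicle, 16036 to 32334 in WT folic acid and 25324 to 38731 in WT vehicle, and Slc22a6 among them was lower in WT folic acid than in WT vehicle (log2 -1.50, limma adjusted p = 0.0246), though not without WT folic acid 1 (limma adjusted p = 0.106). With the Y-linked share in the fit its log2 difference was -0.30. In G3 vehicle against WT vehicle Slc22a6 was called lower (log2 -1.30) and Cubn higher (log2 0.57). Lrp2 was called lower in G3 folic acid than in WT folic acid (log2 -1.07). The folic acid effect in G3 minus that in WT was called at 2.36 for Slc22a6 and -1.21 for Lrp2. None of these tubule marker calls remained with the Y-linked share or the title series in the fit. WT folic acid 1 had the lowest sums of distal tubule markers (1188 against 3648 or more elsewhere) and of podocyte markers (146 against 335 or more).

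Of the markers of fibroblasts, macrophages and red cells, only red cell genes were called after folic acid in the fit over all 15 libraries. The 4 fibroblast markers summed to 1247 to 2464 normalised counts in G3 folic acid and 405 to 975.2 in G3 vehicle. In WT folic acid they summed to 4411 in library 1 and to 718 and 768 in libraries 2 and 3, against 513 to 724 in WT vehicle. None of the 4 was called in either genotype, at a median log2 difference of 0.94 in G3 and 1.11 in WT, which was 0.21 in WT without WT folic acid 1. The 5 macrophage markers summed to 1039 to 2289 in G3 folic acid and 671 to 1044 in G3 vehicle, with a median log2 difference of 1.48. They summed to 2560.55 in WT folic acid 1 and to 1222 and 1219 in libraries 2 and 3, against 944 to 1337 in WT vehicle, with a median of 0.70, or 0.19 without WT folic acid 1. None of these 5 was called, but in G3 4 of them were when WT folic acid 1 was left out of the fit. The 4 red cell markers summed to 5881 to 20957 in G3 folic acid and 26001 to 42744 in G3 vehicle, where Alas2 (log2 -1.56, limma adjusted p = 0.0252) and the alpha globin gene Hba-a2 (log2 -1.53, limma adjusted p = 0.0377), whose near-identical copy Hba-a1 may share its reads, were called lower. In WT they summed to 16697 to 22013 in folic acid and 15603 to 33738 in vehicle, with 0 of 4 called. The part of cell composition in the mitochondrial values was not tested, and in whole kidney fewer cells of a type and less RNA per cell cannot be told apart.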

How the data were processed

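The deposited values are a signal, namely reads per gene scaled by a single factor in each library. Every library's values are whole multiples of what 1 read is worth (0.895 to 1.13 normalised counts), 100% of them within 0.001. Those whole reads gave the depths. Per the submitters' processing notes, the tools were FastQC 0.11.7, TopHat2 2.0.10, Bowtie 1.0.0, SAMtools 0.1.19, HTSeq 0.6.1 and DESeq2, on GRCm38. Per the labels' protocols, 300 ng of RNA with a mean quality number of 6.3 (4.7 to 8.0) went into each library. The annotation release and any filter on genes are not known here. Every column belonged to a sample.

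Genes with at least 10 normalised counts in at least 3 libraries (14651) entered the test, as log2 values with 1 added to each normalised count. The model, limma 3.58.1 run under R 4.3.3, had a trend of variance with level and group terms over all 15 libraries. p-values were adjusted by Benjamini-Hochberg over all tested genes. The labels do not say that each library is 1 mouse, so p-values measure the spread between libraries. The most alike libraries, WT folic acid 2 and 3 and G3 vehicle 3 and 4, differed with a chi-square statistic that averaged 3.01 and 2.88 over genes, where sampling noise alone gives about 1, and were counted separately. DESeq2 1.42.0 and edgeR 4.0.16, run on whole reads, were alternatives. Others were terms for the labelled sex, the share of Y-linked RNA or the title series, other filters, pseudocounts of 0.5 and 5, TMM and nuclear-total scaling, the compared groups only and leaving out libraries. Positions and sequences came from GENCODE M21 transcripts, and nuclear copies from BLAST+ 2.17.0 against the same transcripts.

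Values in every library were given for protein and rRNA genes with a mean of at least 1000, for called genes and for the 4 highest tRNA genes. Nuclear lists are given by counts and up to 3 called genes of smallest p. The genes and lists were chosen with earlier results of these data known.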

Additional observations from a re-analysis of the deposited data

Results flagged for a closer look

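Sets of 4 libraries were examined, each for a gene, a mitochondrial read share or the rRNA to protein ratio in a group. In 4 of the 99 sets 1 library stood far from the other 3, and chance alone sets 1 apart in about 1 of 20. In G3 vehicle, library 2 had 29842 normalised counts of mt-Atp6, against 15708 to 17929 in the other 3. The same library had 685840 of mt-Rnr2, against 470555 to 502567. In WT vehicle, library 2 had 26.5 of mt-Ta, against 44.1 to 47.0, and this library held both Xist and Y-linked RNA. In G3 folic acid, library 2 had 82.7 of mt-Ti, against 8.05 to 16.98.

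The effect of folic acid differed between G3 and WT for a pair of genes, by a test of the difference itself in limma over all genes. It was -0.92 on the log2 scale for mt-Nd3 and 1.31 for mt-Nd6. The presence of Y-linked RNA ran opposite ways in G3 and WT, and with its share in the fit neither difference was called. Over all tested genes that fit called 2, against 560 without the share.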

How the results depend on the processing

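No result reversed among the called genes. In WT folic acid against WT vehicle, where 4 mitochondrial genes were called, the count was 0 with the share of Y-linked RNA in the fit (also without WT folic acid 1), 0 with the title series, 2 with the compared groups only and 7 with DESeq2. In G3 vehicle against WT vehicle, with 1 call, it was 0 with the labelled sex, with the Y-linked share (also without WT folic acid 1), with the title series, without a filter, with scaling to nuclear totals, with edgeR and without the 2 libraries that hold both Xist and Y-linked RNA, and 3 with the compared groups only. In G3 folic acid against WT folic acid, with 2 calls, it was 1 with the Y-linked share (also without WT folic acid 1), 0 with the title series, 1 with the compared groups only and 5 with DESeq2. For the difference of effects, with 2 calls, it was 1 with the labelled sex, 0 with the Y-linked share (also without WT folic acid 1) and 0 with the title series. The fit on compared groups only was not run for it, since it needs all 4 groups. Leaving out each library gave 0 calls in G3 folic acid against G3 vehicle, 0 to 5 in WT folic acid against WT vehicle, 0 to 1 in G3 vehicle against WT vehicle, 0 to 3 in G3 folic acid against WT folic acid and 0 to 3 for the difference of effects. With the labelled sex, edgeR or nuclear totals the count in WT stayed at 4, with mt-Tm called and mt-Nd6 not. The labelled sex fit also called mt-Tl1 and lost mt-Tw, so it shared only 2 of the 4 calls with the main fit. Over all tested genes the main fit called 741 in WT folic acid against WT vehicle, and DESeq2 called 1257. The Y-linked share left 1 call over all genes there, and the title series 2. In G3 vehicle against WT vehicle each left 1, against 425. In G3 folic acid against WT folic acid they left 17 and 0, against 337, and DESeq2 called 763.

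The median log2 difference of the protein genes turned with the Y-linked share. In the fits with that share, with and without WT folic acid 1, it was -0.28 and -0.28 in G3 folic acid against G3 vehicle, 0.14 and 0.30 in WT folic acid against WT vehicle, 0.17 and 0.18 in G3 vehicle against WT vehicle, -0.24 and -0.38 in G3 folic acid against WT folic acid, and -0.40 and -0.62 for the difference of effects. With the title series it was -0.45 in G3 vehicle against WT vehicle and -0.20 in G3 folic acid against WT folic acid. Leaving out each library gave -0.14 to 0.06 in G3 folic acid against G3 vehicle, -0.44 to -0.19 in WT folic acid against WT vehicle, -0.31 to -0.16 in G3 vehicle against WT vehicle, -0.12 to 0.10 in G3 folic acid against WT folic acid and 0.11 to 0.40 for the difference of effects. Scaling to nuclear totals moved the median of all genes to 0.16 in G3 vehicle against WT vehicle and 0.10 in WT folic acid against WT vehicle, and the median of the protein genes was -0.09 in the first of these comparisons and -0.27 in the second. The causes were not tested.

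With Gm42418 out of the total, the mitochondrial share was 25.6% in G3 folic acid, 26.2% in G3 vehicle, 28.2% in WT folic acid and 27.5% in WT vehicle, which turned its direction between the WT groups. Leaving out each library gave 23.3% to 24.3% in G3 folic acid, 23.5% to 25.003% in G3 vehicle, 23.4% to 25.7% in WT folic acid and 25.5% to 26.03% in WT vehicle. Over all genes DESeq2 called 387 in G3 folic acid against G3 vehicle, where limma called 40. Of the single genes, mt-Nd3 was called in 25 of 29 alternatives in WT, with log2 differences of 0.74 to 1.46. The count was 22 of 29 for mt-Tp, 15 of 28 for mt-Tw and 8 of 29 for mt-Nd6. The fit with the Y-linked share without WT folic acid 1 was chosen after seeing the data. No paired analysis was possible because the replicate numbers follow sample order and the titles carry no shared numbers. Depth limits mt-Nd6, mt-Nd4l, mt-Tw and the lower tRNA genes, which had few reads in each library.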
